A study of Homo sapiens with 8 samples.

Results

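NANOG, POU5F1 and SOX2 encode the core transcription factors of human pluripotent cells. They were followed on every probe that the array platform's annotation assigns to them, 6 of the 47323 probes on the array, with 2 probes per gene. POU5F1 encodes the protein called OCT4 in the labels. RNA came from 8 samples of H1 cells, an established human embryonic stem cell line, kept feeder-free in mTeSR on Matrigel. All samples received lentivirus with polybrene: 2 samples an OE-NANOG vector, 2 an OE-OCT4 vector, 2 an OE-SOX2 vector, and 2 the EF1a-control vector, so the controls were transduced cells as well. The groups are called NANOG, OCT4, SOX2 and control below. The promoter in the OE vectors, the share of cells transduced, the time to harvest and whether replicates were separate cultures are unstated in the sources used. The p-values therefore cover the scatter among these arrays alone, and that scatter may be technical.

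NANOG is a homeodomain protein, OCT4 a POU-domain protein that binds an octamer, and SOX2 an HMG-box protein that binds beside OCT4 on a composite element. In embryonic stem cells the 3 proteins bind many of the same enhancers and promoters, their own genes included, and thereby form an autoregulatory circuit. The circuit is known to be sensitive to dose: in mouse cells, both loss and excess of OCT4 or of SOX2 lead to differentiation, while raised NANOG sustains self-renewal. A transduced factor can therefore act on the resident copy of its own gene and on those of its partners.

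The promoters of the members are shown because they are among the sequences where such motifs can lie. The RefSeq promoter table of GRCh38.p14 matched 2 of the 3 genes, with windows of 250 bases before and 50 after the start, both on the plus strand. They are chr12:7789152-7789451 for NANOG and chr3:181711675-181711974 for SOX2. Capitals mark matches to the octamer core TTTGCAT, the SOX site core ACAATG and the OCT4-SOX2 composite (the octamer core, any 1 base, then ACAA), searched on both strands. The composite contains the octamer core and overlaps the SOX core.
NANOG: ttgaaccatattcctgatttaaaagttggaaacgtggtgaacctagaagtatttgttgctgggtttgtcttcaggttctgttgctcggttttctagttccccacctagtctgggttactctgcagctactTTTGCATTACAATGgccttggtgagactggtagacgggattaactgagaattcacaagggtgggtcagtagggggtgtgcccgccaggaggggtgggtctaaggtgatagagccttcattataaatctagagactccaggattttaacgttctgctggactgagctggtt
SOX2: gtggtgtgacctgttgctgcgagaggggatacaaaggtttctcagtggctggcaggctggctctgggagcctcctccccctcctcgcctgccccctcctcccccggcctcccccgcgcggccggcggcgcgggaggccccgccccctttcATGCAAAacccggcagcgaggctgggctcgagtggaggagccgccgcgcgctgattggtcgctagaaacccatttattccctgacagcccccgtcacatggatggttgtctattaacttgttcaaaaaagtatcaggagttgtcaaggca
The NANOG window held all 3 motifs in 1 stretch. The composite stood at bases 131 to 142 of the window and the SOX core at bases 139 to 144. The SOX2 window held an octamer core alone, at bases 151 to 157 and on the opposite strand. Of 34796 promoter windows of the same length, 4.46% held the octamer core, 10.8% the SOX core and 0.0316% (11 windows) the composite. A match is a run of letters, not evidence of binding in these cells. Sequence outside the windows, enhancers included, was not searched, so a motif missing here may lie elsewhere.

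The values are the authors' normalized probe intensities. They were corrected for background and put on the log2 scale before testing, and a probe was tested when its intensity passed 123.7 on at least 2 arrays. All 6 member probes passed, among 21828 probes tested. Every test is limma's, two-sided, with Benjamini-Hochberg adjustment over all 21828 probes and a threshold of 0.05. The number of arrays, 2 per group, limits the precision. Of 14 stem cell marker genes on the array, the members included, 13 read above the filter intensity on all 8 arrays, and TERT read 103 to 135. Their summed intensity was 39940 and 40600 on NANOG arrays, 35509 to 37336 on OCT4 arrays, 31504 to 35937 on SOX2 arrays and 39796 to 42717 on control arrays. Of 10 fibroblast genes, 2 read above the filter intensity on all 8 arrays, and POSTN, FAP and LUM stayed under it on all arrays. The sum over the 10 was 1784 to 1797 with NANOG, 1877 to 2443 with OCT4, 1760 to 1848 with SOX2 and 2061 to 2517 with control. Of the fibroblast list, the collagen gene COL1A2 fell 1.80-fold with SOX2 (adjusted p = 0.0374, limma), while its further probe did not pass (-0.24, adjusted p = 0.550), and the call was lost without either NANOG array, SOX2 replicate 2 or either control array (adjusted p up to 0.176). Of 10 blood and endothelial genes 4 read above the filter on all arrays and 5 stayed under it on all. Their sums were 1433 to 1526, 1469 to 1489, 1490 to 1596 and 1510 to 1596 in the same order of groups. No background was subtracted from the marker sums, and the median intensity of an array was 117.1. These sums move with some of the results below, and their part in those results was not tested. In bulk RNA, fewer cells expressing a gene and less RNA per cell cannot be told apart.

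**Figure D1:**
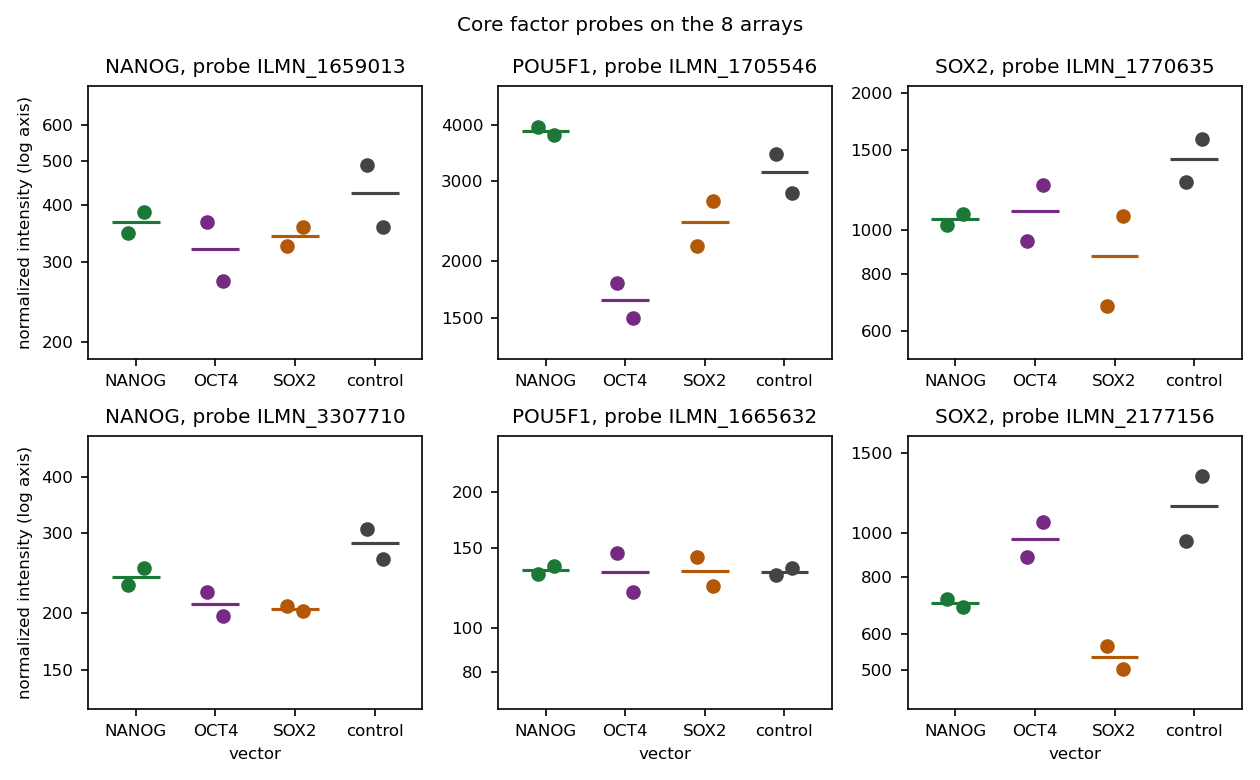
Normalized intensity of the 6 core factor probes on each of the 8 arrays, by vector (log axis spanning a 4-fold range in every panel). Points are arrays and lines are means of 2 arrays. POU5F1 probe ILMN_1705546 runs from 1501 on an OCT4 array to 3945 on a NANOG array, and SOX2 probe ILMN_2177156 lies at 565 and 502 on the SOX2 arrays, below all others.

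Each gene was first read on the arrays labelled with its own vector, which is the design's check of the labels. None of the 6 probes had a higher mean there than on the control arrays, and 4 of the 6 had both own-vector arrays below both control arrays, as 28.5% of all probes did with NANOG, 19.1% with OCT4 and 24.7% with SOX2. Of the 6, 1 passed, SOX2 probe ILMN_2177156 with a 2.22-fold fall, where 8.01% of all probes were called with SOX2 (3.67% lower), 2.32% with NANOG and 0.174% with OCT4. The platform annotation assigns the probes to RefSeq transcripts (NM_024865 for both NANOG probes, NM_003106 for both SOX2 probes, NM_002701 and NM_203289 for POU5F1) without giving their positions in them. A probe outside the transduced sequence reads the resident gene alone and checks nothing about the vector, so the groups are called by their labels. No member probe showed a raised level of the factor named on the label, and each direction given below is that of arrays labelled with a vector.

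SOX2 probe ILMN_2177156 read 565 and 502 on SOX2 arrays, against 959 and 1337 on control arrays. Both SOX2-vector arrays lay below both control arrays and below every other array of the series. The log2 change was -1.15 (SE 0.18, 95% interval -1.55 to -0.75, adjusted p = 0.00840, limma), and 0.692% of tested probes had a more negative change in this comparison. SOX2 probe ILMN_1770635, for the same transcript, read 678 and 1071 on SOX2 arrays and 1272 and 1587 on control arrays. Its groups did not overlap, but its SOX2 arrays lay 0.69 log2 apart, and the change of -0.77 (SE 0.24, 95% interval -1.31 to -0.23) did not pass (adjusted p = 0.0910, limma). Relative to the control mean, the ratio of ILMN_1770635 to ILMN_2177156 shifted by -0.057 log2 on SOX2 replicate 1 and by 0.82 on SOX2 replicate 2, so the probes disagreed on replicate 2. The call on ILMN_2177156 held with any 1 array left out (adjusted p 0.00133 to 0.0333) and was lost with only the SOX2 and control groups in the fit (adjusted p = 0.0911). ILMN_1770635 passed without SOX2 replicate 2 (-1.12, adjusted p = 0.00631).

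POU5F1 probe ILMN_1705546, the brightest of the 6, read 1793 and 1501 on OCT4 arrays, against 3447 and 2833 on control arrays. The OCT4 arrays were the lowest of the 8. The log2 change was -0.95 (SE 0.16, 95% interval -1.31 to -0.58), the 17th most negative of the 21828 probes in this comparison, and it did not pass (adjusted p = 0.0981, limma). When either SOX2 array was left out, which changes only the shared estimate of spread, it passed (adjusted p = 0.0100). POU5F1 probe ILMN_1665632 read 146 and 120 on OCT4 arrays and 131 and 136 on control arrays, close to the filter intensity on every array. It is annotated to NM_203289, a different POU5F1 transcript from the NM_002701 of the bright probe. Its change of -0.014 (SE 0.16, 95% interval -0.39 to 0.36) did not pass (adjusted p = 1.00, limma), and at this brightness it shows neither presence nor absence of a change.

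NANOG probe ILMN_1659013 read 347 and 387 on NANOG arrays, against 491 and 358 on control arrays. The groups overlapped, and the control arrays lay 0.51 log2 apart. NANOG probe ILMN_3307710 read 231 and 251 on NANOG arrays and 308 and 263 on control arrays, without overlap. The changes were -0.22 (95% interval -0.69 to 0.26) and -0.29 (-0.60 to 0.021), and neither passed (adjusted p = 0.735 and 0.390, limma). The intervals limit any rise on the NANOG arrays to 1.20-fold and 1.01-fold at these probes. Without control replicate 1 the sign of ILMN_1659013 turned (0.038).

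Across all 3 comparisons with control, the called member probes were 0 of 6 with NANOG, where 2.32% of all tested probes were called, 0 of 6 with OCT4 (0.174% of all), and 2 of 6 with SOX2 (8.01% of all). At an unadjusted p under 0.05, 3140, 1418 and 5102 of all probes passed in the same order. Both called member probes were lower, against 3.67% of all probes called lower with SOX2. Member means lay below control for 4 of 6 probes with NANOG, 6 of 6 with OCT4 and 6 of 6 with SOX2. Over all 12436 genes by 1 probe each, 6664, 6102 and 6127 means lay below control in the same order. The counts of 6 include the dim POU5F1 probe ILMN_1665632 at -0.014 and -0.0046, whose sign turned with some arrays left out. With 2 probes per gene, the 6 are not independent either. The 3 comparisons share the same 2 control arrays, so these counts are not independent of each other. Non-overlap with both group arrays below control was seen for 3, 3 and 4 probes, and 28.5%, 19.1% and 24.7% of all probes lay that way.

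**Figure D2:**
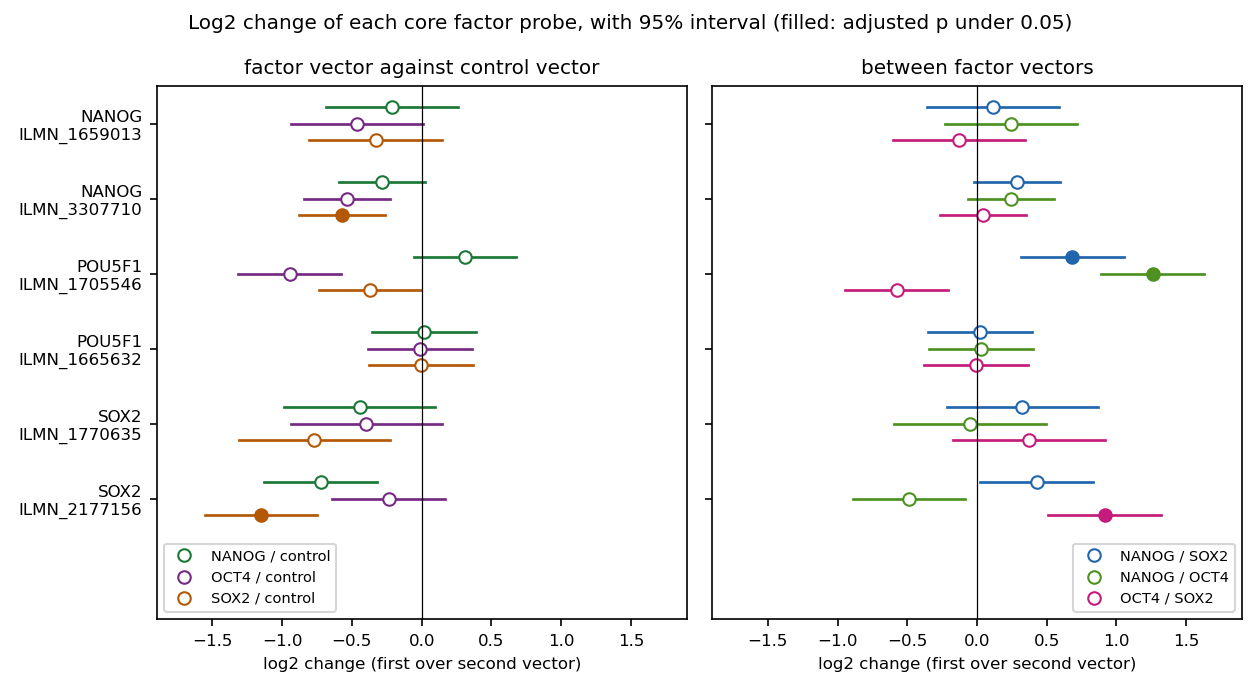
Log2 change of each core factor probe, at left for the 3 factor vectors over control and at right between factor vectors, with 95% intervals from limma (2 arrays per group). Filled points passed at an adjusted p under 0.05: NANOG probe ILMN_3307710 and SOX2 probe ILMN_2177156 with the SOX2 vector, POU5F1 probe ILMN_1705546 in both comparisons of NANOG with another factor, and SOX2 probe ILMN_2177156 for OCT4 over SOX2.

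NANOG was then read under the vectors of its partners. Probe ILMN_3307710 read 207 and 203 on SOX2 arrays, 223 and 197 on OCT4 arrays and 308 and 263 on control arrays. Both factor groups lay wholly below control. It fell by 0.57 on the log2 scale with SOX2 (SE 0.13, adjusted p = 0.0392, limma). With OCT4 the change was nearly the same size, -0.53 (SE 0.13, adjusted p = 0.313), in a comparison where far fewer probes were called, and OCT4 minus SOX2 was 0.040 (95% interval -0.27 to 0.35, adjusted p = 0.906). The brighter probe ILMN_1659013 read 325 and 359 on SOX2 arrays, 366 and 273 on OCT4 arrays and 491 and 358 on control arrays, with overlap in both cases (-0.33, adjusted p = 0.382, and -0.46, adjusted p = 0.779). The SOX2 call on ILMN_3307710 was lost without any 1 of 7 arrays: either NANOG array (adjusted p = 0.0873), either OCT4 array (0.0594), SOX2 replicate 2 (0.0535), control replicate 1 (-0.44, 0.226) or control replicate 2 (0.0555). Without SOX2 replicate 1 it held (0.0199).

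Levels of NANOG mRNA from high to low were control, NANOG, SOX2 and OCT4 on probe ILMN_1659013, and control, NANOG, OCT4 and SOX2 on ILMN_3307710. No neighbours in either order differed past the threshold, and the between-vector differences of both probes had adjusted p from 0.213 to 0.906. The probes moved alike over the arrays: the root mean square difference of their centred log2 profiles was 0.14, and 0.0458% of other tested probes lay closer to ILMN_1659013. The SOX2 probes moved less alike, at a difference of 0.32, with 13.9% of probes closer to ILMN_1770635. For the POU5F1 probes, of which 1 is dim, it was 0.50, with 39.4% of probes closer to ILMN_1705546.

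POU5F1 was the member with the widest range between factor vectors. On probe ILMN_1705546, NANOG arrays read 3945 and 3795, SOX2 arrays 2161 and 2721, and OCT4 arrays 1793 and 1501. The 3 groups did not overlap. POU5F1 was 2.39-fold higher with NANOG than with OCT4 (log2 1.26, SE 0.16, 95% interval 0.89 to 1.63, adjusted p = 0.00399, limma) and 1.61-fold higher with NANOG than with SOX2 (log2 0.68, SE 0.16, adjusted p = 0.0264). In these comparisons 1 of 6 member probes was called each time, and 5.12% and 13.5% of all probes were. OCT4 minus SOX2 was -0.58 (SE 0.16, adjusted p = 0.0880). The first call was lost without NANOG replicate 1 (adjusted p = 0.0730), NANOG replicate 2 (0.0540) or OCT4 replicate 2 (0.0530), and the second without NANOG replicate 1 (0.177) or NANOG replicate 2 (0.139). The difference between OCT4 and SOX2 passed without SOX2 replicate 1 (-0.74, adjusted p = 0.00781).

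Against control, POU5F1 on ILMN_1705546 was the member probe whose NANOG arrays both lay above both control arrays (3945 and 3795, against 3447 and 2833), as 23.7% of all probes did. Its change of 0.31 (SE 0.16, 95% interval -0.055 to 0.68) did not pass (adjusted p = 0.438, limma). With SOX2 the change was -0.37 (SE 0.16, adjusted p = 0.209). The order from high to low was NANOG, control, SOX2 and OCT4, and no neighbours in it differed past the threshold. The dim probe ILMN_1665632 spanned 0.029 log2 between group means in all.

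SOX2 mRNA had its lowest group mean under its own vector on both probes. On ILMN_1770635, however, the SOX2 arrays overlapped those of NANOG and of OCT4 (adjusted p = 0.433 and 0.429, limma). On ILMN_2177156, NANOG arrays read 716 and 687, OCT4 arrays 885 and 1056, and SOX2 arrays 565 and 502. The OCT4 and NANOG arrays all lay above the SOX2 arrays. SOX2 was 1.88-fold higher with OCT4 than with SOX2 (log2 0.91, SE 0.18, 95% interval 0.51 to 1.32, adjusted p = 0.0255, limma), 1 of 6 member probes called where 4.75% of all probes were. The differences NANOG minus SOX2 (0.43, 95% interval 0.024 to 0.83, adjusted p = 0.159) and NANOG minus OCT4 (-0.49, -0.89 to -0.084, adjusted p = 0.181) did not pass. The OCT4 against SOX2 call was lost without either NANOG array (adjusted p = 0.0752), OCT4 replicate 1 (0.0885) or OCT4 replicate 2 (0.175).

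On the arrays of the other vectors, SOX2 probe ILMN_2177156 was at -0.72 with NANOG (SE 0.18, adjusted p = 0.0830, limma), with both NANOG arrays below both control arrays, and at -0.24 with OCT4 (SE 0.18, adjusted p = 0.959), with overlap. The first passed when either SOX2 array (adjusted p = 0.0239) or control replicate 1 (-0.97, 0.0406) was left out, and the second turned to 0.012 without control replicate 2. Probe ILMN_1770635 read 1027 and 1083 on NANOG arrays, 946 and 1257 on OCT4 arrays and 1272 and 1587 on control arrays, at -0.44 (adjusted p = 0.460) and -0.40 (adjusted p = 0.911). The order from high to low was control, OCT4, NANOG and SOX2 on both probes, and no neighbours in it differed past the threshold. Between NANOG and SOX2, ILMN_1770635 differed by 0.32 (adjusted p = 0.433), 0.67 without SOX2 replicate 2 (adjusted p = 0.0398) and -0.022 without SOX2 replicate 1.

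**Figure D3:**
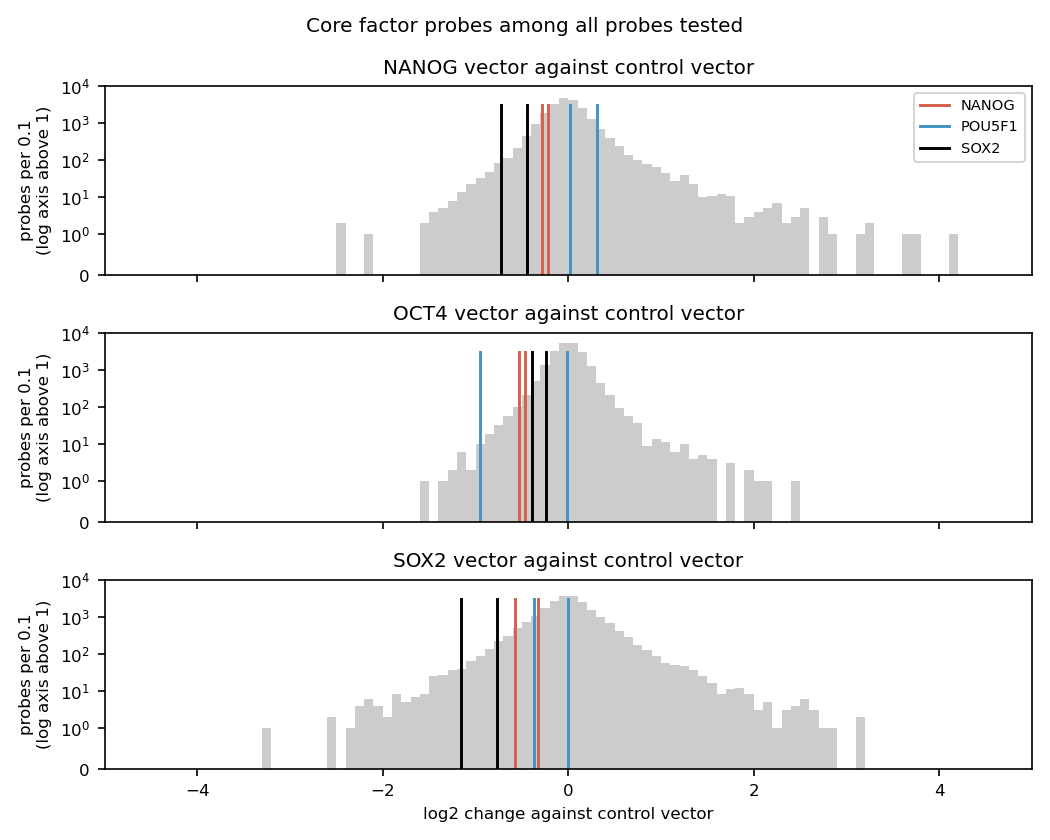
Distribution of log2 changes of all 21828 probes tested (grey bars, count per 0.1 log2, log axis above 1) for each factor vector over control, with the 6 core factor probes as vertical lines. All 6 lie at or below 0 with OCT4 and SOX2, the dim POU5F1 probe ILMN_1665632 only at -0.014 and -0.0046. POU5F1 probe ILMN_1705546 at -0.95 with OCT4 is the 17th most negative.

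The spread between replicate arrays limits several of these readings. The residual SD over the 8 arrays was 0.31 log2 for SOX2 probe ILMN_1770635 and 0.26 for NANOG probe ILMN_1659013, larger than for 93.6% and 89.4% of tested probes. It was 0.21 for ILMN_2177156, 0.18 for ILMN_1705546 and 0.13 for ILMN_3307710, against a median of 0.13 over all probes. Control replicate 1 minus control replicate 2 was 0.51 and 0.26 for the NANOG probes, 0.29 for ILMN_1705546, and -0.33 and -0.50 for the SOX2 probes. For the dim POU5F1 probe ILMN_1665632 it was -0.084. On OCT4 arrays the difference was 0.49 and 0.23 for the NANOG probes, 0.26 for ILMN_1705546, -0.43 and -0.27 for the SOX2 probes. It was 0.42 for the dim probe. Its sign on OCT4 arrays thus matched control on every member probe but the dim one. On NANOG and SOX2 arrays the signs did not match control throughout.

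Near relatives of the members were examined because they can stand in for a member or bind its probes. No probe carries the symbols NANOGP1, NANOGP8, POU5F1B, POU5F1P3 or POU5F1P4 in the annotation used here, so signal from such near-identical copies within the NANOG and POU5F1 probes could not be separated. SOX1, a close paralog of SOX2, read 92.3 to 101 and did not pass the filter, nor did NANOGNB (101 to 118 over 2 probes) or POU5F2 (94.0 to 101). SOX3, the other close paralog, read 161 and 179 on NANOG arrays, 437 and 615 on OCT4 arrays, 205 and 243 on SOX2 arrays and 253 and 331 on control arrays. The OCT4 arrays were the highest, and the 4 groups did not overlap. SOX3 was 2.63-fold higher with OCT4 than with SOX2 (adjusted p = 0.0115, limma) and 3.73-fold lower with NANOG than with OCT4 (adjusted p = 0.00242), while its changes over control did not pass (-0.95 with NANOG, 0.95 with OCT4 and -0.45 with SOX2, adjusted p = 0.0663, 0.234 and 0.258). SOX21, a group B relative known to repress SOX2 targets, was 5.82-fold higher with SOX2 and 4.57-fold lower with NANOG than in control (adjusted p = 0.00174 and 0.00583). The rise held with any 1 array left out, and the fall was lost without NANOG replicate 1, NANOG replicate 2 or control replicate 2 (adjusted p up to 0.114). SOX15, POU3F1 and POU3F2 also passed the filter, and none of their changes over control passed.

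Genes known to be bound by all 3 factors and active in stem cells included LEFTY1 and GDF3, which rose with NANOG, HESX1, which fell with OCT4 and with SOX2, and TERF1, which fell with SOX2. Of 21 measured genes on this textbook list, 2 rose and 1 fell with NANOG, 0 rose and 1 fell with OCT4, and 0 rose and 5 fell with SOX2. Over all 12436 genes by 1 probe each, 2.30% rose and 0.675% fell with NANOG, 0.201% rose and 0.0402% fell with OCT4, and 5.65% rose and 4.41% fell with SOX2. The list medians were 0.14, -0.13 and -0.17 log2, and those of all genes -0.017, 0.0036 and 0.0047.

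TERF1, a telomere-binding shelterin subunit, read 440 and 355 on SOX2 arrays, against 1944 and 2155 on control arrays. It fell 5.68-fold (log2 -2.51, SE 0.16, adjusted p = 0.000322, limma), and its dim further probe also fell (-0.53, adjusted p = 0.0352). HESX1, which encodes a homeobox repressor needed in forebrain development, read 121 and 144 on SOX2 arrays, 174 and 163 on OCT4 arrays and 332 and 319 on control arrays. It fell by 1.66 log2 with SOX2 (adjusted p = 0.000851, limma) and 2.25-fold with OCT4 (adjusted p = 0.0238). Of the 2 SOX2 arrays 1 lay under the filter intensity, and the change with SOX2 was -1.30 log2 without background correction. HESX1 read 519 and 461 on NANOG arrays, above both SOX2 arrays (adjusted p = 6.91e-05). The gap junction gene GJA1 fell 2.01-fold with SOX2 (adjusted p = 0.00718) and 1.67-fold with NANOG (adjusted p = 0.0436), with 714 and 761 on SOX2 arrays, 899 and 866 on NANOG arrays and 1270 and 1639 on control arrays. On OCT4 arrays GJA1 read 877 and 763, also below both control arrays (-0.85 log2), and did not pass (adjusted p = 0.104, limma). NANOG minus OCT4 was 0.11 (adjusted p = 0.785), so the fall was not particular to SOX2 and NANOG.

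GDF3, a secreted ligand of the TGF-beta superfamily, read 3986 and 3316 on NANOG arrays, 113 and 134 on SOX2 arrays and 699 and 275 on control arrays. It was 9.19-fold higher with NANOG than in control (adjusted p = 0.0116, limma) and changed by -2.29 log2 with SOX2 (adjusted p = 0.0218). Of the 2 SOX2 arrays 1 lay under the filter intensity, and the change with SOX2 was -1.84 log2 without background correction. Both NANOG arrays lay above both SOX2 arrays (adjusted p = 0.000262). LEFTY1, a nodal inhibitor, rose 9.56-fold with NANOG (adjusted p = 0.0103), while LEFTY2 was at 2.53 log2 and did not pass (adjusted p = 0.0506). The TERF1 call, and HESX1 with SOX2, held with any 1 array left out, as did GJA1 with SOX2. HESX1 with OCT4 was lost without any 1 of the NANOG, OCT4 or control arrays (adjusted p up to 0.286), and GJA1 with NANOG without either NANOG array, either OCT4 array or control replicate 2 (up to 0.341). GDF3 with NANOG was lost without either NANOG array (up to 0.192), LEFTY1 without either NANOG array or control replicate 2 (up to 0.131), and GDF3 with SOX2 without either NANOG array or control replicate 1 (up to 0.0925). Without control replicate 1 the GDF3 change with SOX2 was -1.54 log2. Without control replicate 2 its change with NANOG was 2.45 log2.

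Among partner and cofactor genes of the circuit, no change passed with NANOG or OCT4. Of 33 measured genes on the cofactor list, 0 rose and 0 fell with NANOG (2.30% and 0.675% of all genes) or with OCT4 (0.201% and 0.0402%), and 1 rose and 3 fell with SOX2 (5.65% and 4.41%). These counts are near the shares over all genes and show nothing particular to the list. The medians were -0.053, -0.072 and 0.024 log2. Changes that did not pass included, with NANOG, UTF1 at 1.58 log2 (adjusted p = 0.168), OTX2 at -1.13 (0.0753, both NANOG arrays under the filter intensity) and DPPA2 at 0.92 (0.292), and with OCT4, PRDM14 at -0.96 (0.495) and ZIC2 at 0.73 (0.778). With SOX2, the zinc finger gene ZIC2 rose 2.61-fold (adjusted p = 0.0399, limma), while DPPA2, a chromatin protein of early embryos, fell 2.81-fold (0.0456), ZFP42, known as REX1, 1.64-fold (0.0450) and SALL4, a zinc finger partner of OCT4, 1.49-fold (0.0307). These 4 calls were each lost without at least 5 single arrays. With all arrays kept, each was also lost with array weights and with only the groups compared in the fit. ZIC2 and DPPA2 were lost without background correction too, and ZFP42 and SALL4 with an offset of 16. Among further stem cell markers, the DNA methyltransferase gene DNMT3B fell 2.51-fold with SOX2 (1165 and 1900 on SOX2 arrays, 4418 and 3054 on control arrays, adjusted p = 0.0196), and its further probes were at -1.33, -0.91 and -0.52. The surface sialomucin gene PODXL fell 2.04-fold with NANOG (adjusted p = 0.00926), while its further probe did not pass (-0.80, adjusted p = 0.0894). DNMT3B was lost without either NANOG array or control replicate 1 (up to 0.145), and PODXL without either NANOG array or control replicate 2 (up to 0.147).

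**Figure D4:**
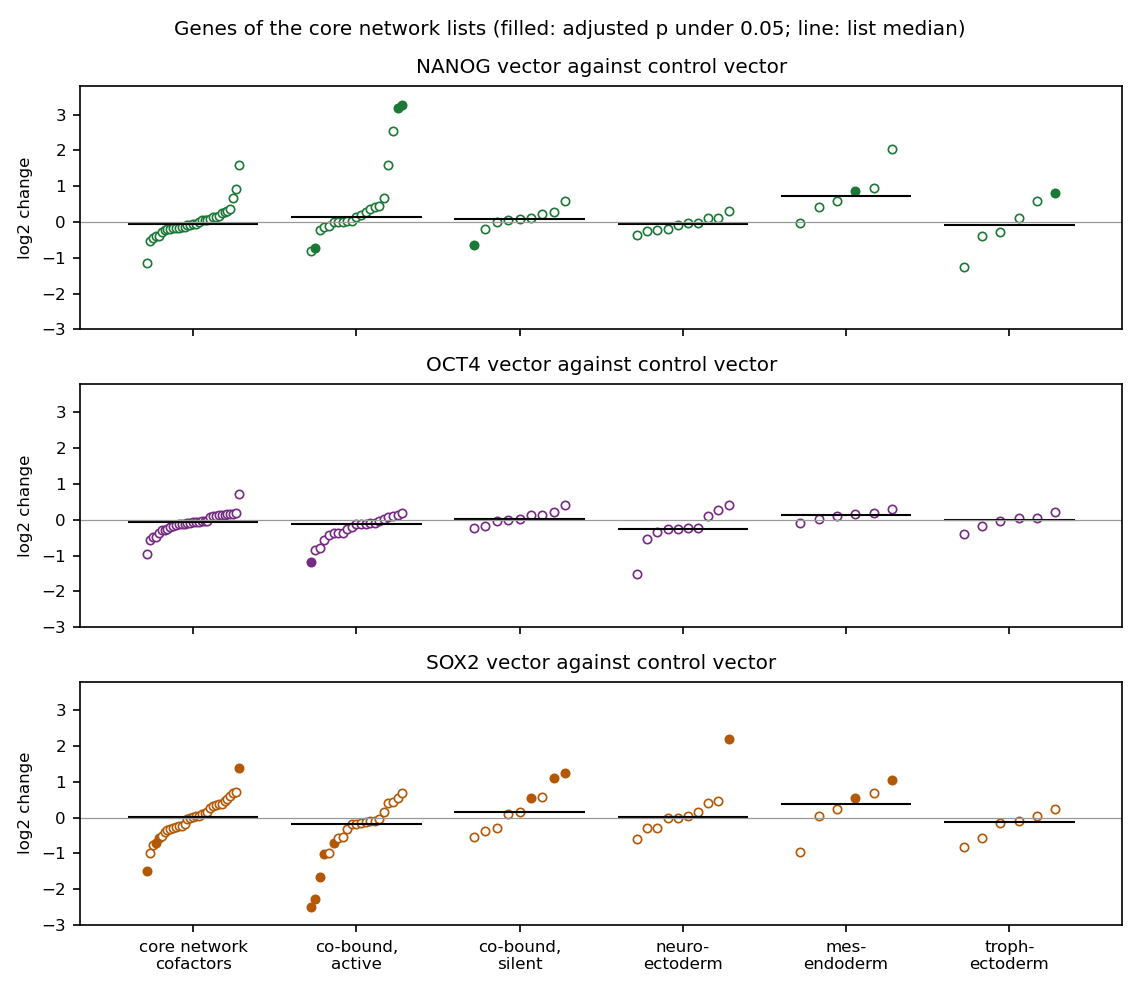
Log2 change over control of the genes on 6 lists around the core factors, by vector, each gene by its brightest probe (points, ordered within a list; filled at an adjusted p under 0.05; lines are list medians). With the SOX2 vector, 5 of 21 co-bound active genes are filled below 0 and 3 of 9 co-bound silent genes above 0. The silent genes read near the filter intensity on control arrays and had little room to fall. EOMES, among the 3, passed the filter only through its NANOG and SOX2 arrays.

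Developmental regulators that the 3 factors are known to occupy in the silent state had few measurable members. Of 24 on the list, 9 passed the filter. With SOX2, 3 rose and 0 fell, where 5.65% and 4.41% of all genes did. With NANOG 0 rose and 1 fell (2.30% and 0.675% of all). With OCT4 none passed, where 0.201% of all genes rose and 0.0402% fell, so that 0 of 9 says nothing about these genes. ZFHX3, a homeodomain and zinc finger gene, read 244 and 297 on SOX2 arrays, against 137 on both control arrays (2.39-fold, adjusted p = 0.00242, limma). DLX5, a homeobox gene, read 227 and 247 on SOX2 arrays and 132 and 135 on control arrays (2.14-fold, adjusted p = 0.00254). Both calls held with any 1 array left out. Without background correction the 2 changes were 0.97 and 0.83 log2, against 1.26 and 1.10 with it. EOMES, a T-box gene, read only 132 and 148 on SOX2 arrays and lay under the filter intensity on both control arrays. It was at least 1.20-fold higher (adjusted p = 0.0478, limma), a call lost without any 1 of 7 arrays. EOMES also lay under the filter on both OCT4 arrays (117 and 105). It was therefore measured only through the NANOG and SOX2 arrays where it was high, and adds no support to the count of 3. DLX5 on NANOG arrays, under the filter on both, was at least 1.12-fold lower (adjusted p = 0.0388), a call lost without any 1 of the NANOG, OCT4 or control arrays (up to 0.412).

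Lineage markers were read because loss of a core factor is known to release them. Over all genes 5.65% rose and 4.41% fell with SOX2, 2.30% and 0.675% with NANOG, and 0.201% and 0.0402% with OCT4. The counts on these short lists were not tested against those shares. Of 10 measured neuroectoderm genes 1 changed in the 3 comparisons with control, SIX6, an eye field homeobox gene, which read 492 and 391 on SOX2 arrays and 120 and 138 on control arrays (log2 change 2.20, adjusted p = 0.000397, limma), a call that held with any 1 array left out. Of the 2 control arrays 1 lay under the filter intensity, and the change was 1.77 log2 without background correction. Of 6 measured mesendoderm genes, CXCR4, a chemokine receptor gene, rose with NANOG (log2 change 0.88, adjusted p = 0.0210, limma) and with SOX2 (1.06, 0.00503). EOMES rose with SOX2 as given above, and was measured only through the NANOG and SOX2 arrays. CXCR4 also had 1 of the 2 control arrays under the filter intensity, and its changes were 0.63 and 0.77 log2 without background correction. Of 6 measured trophectoderm genes, the transcription factor gene TFAP2C rose with NANOG (1.75-fold, adjusted p = 0.0420). CXCR4 was lost with NANOG without any 1 of the NANOG or control arrays (up to 0.248) and with SOX2 without control replicate 1 (0.0553), and TFAP2C without any 1 of the NANOG or control arrays (up to 0.337). With OCT4, 0 genes of these 3 lists passed. The mesendoderm medians were 0.74, 0.13 and 0.38 log2 with NANOG, OCT4 and SOX2, with 5 of 6 means above control each time. The neuroectoderm medians were -0.064, -0.24 and 0.027, and the trophectoderm medians -0.075, -0.0018 and -0.12. Those of all genes were -0.017, 0.0036 and 0.0047.

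**Figure D5:**
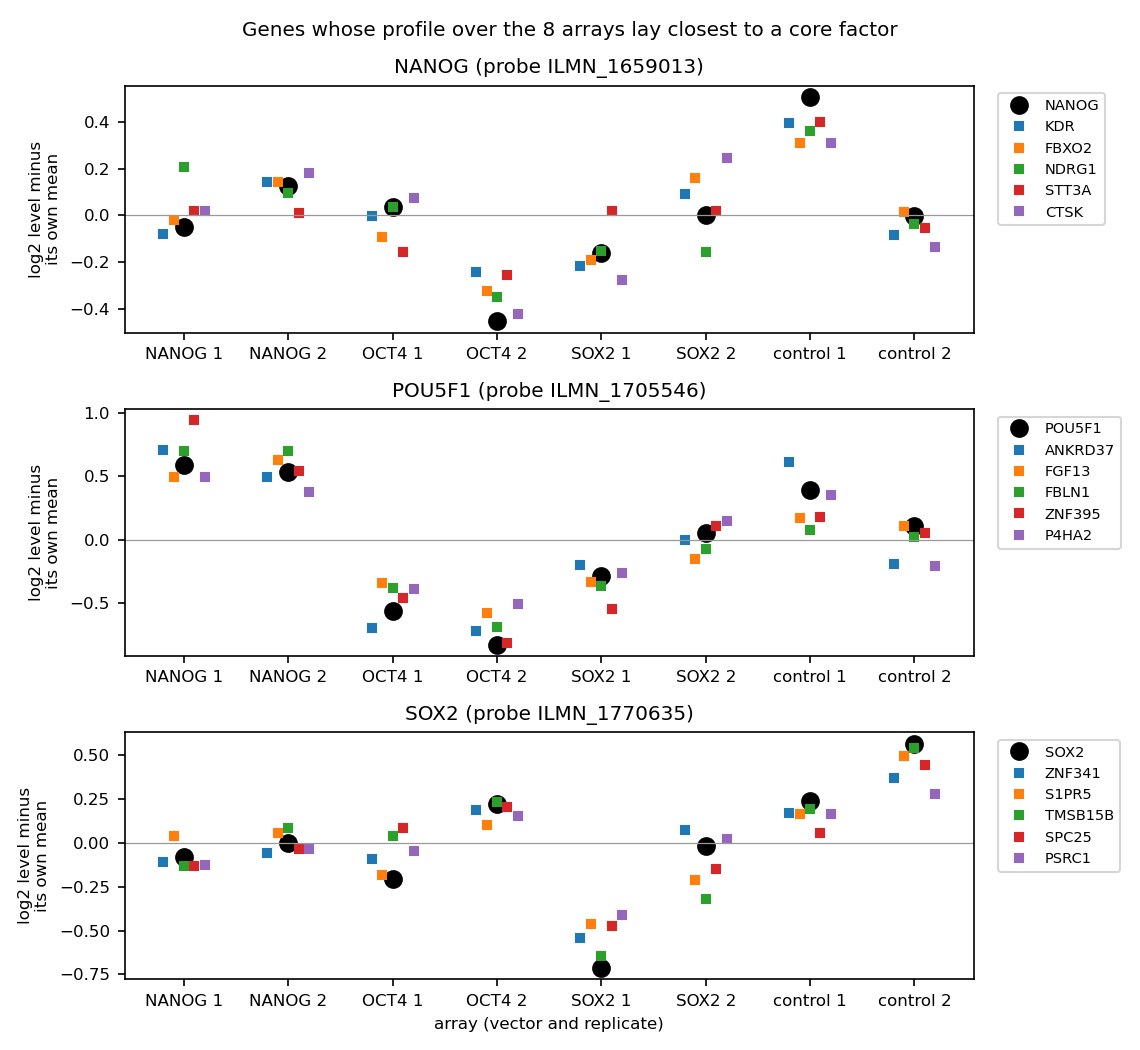
Log2 levels, each minus its own mean over the 8 arrays, of the brightest probe of NANOG, POU5F1 and SOX2 (black) and of the 5 genes closest to each (coloured squares, offset sideways for legibility). The genes were selected for likeness, so the high NANOG and low OCT4 arrays that they share with POU5F1 follow from the selection.

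The genes whose profiles lay closest to each member were found by the root mean square difference of centred log2 levels over the 8 arrays, among probes whose group means spanned at least 0.5 times the member's span. For POU5F1, whose own root mean square deviation was 0.49, they were ANKRD37 (difference 0.16), FGF13, an intracellular member of the FGF family (0.17), FBLN1, a matrix glycoprotein (0.17), ZNF395 (0.18) and P4HA2, a collagen prolyl hydroxylase subunit (0.19), among 3077 eligible probes. ANKRD37 read 136 and 134 on OCT4 arrays and 275 and 175 on control arrays, and FBLN1 635 and 521 on OCT4 arrays and 857 and 827 on control arrays. For NANOG, with a deviation of 0.25, they were KDR (0.099), FBXO2 (0.11), NDRG1 (0.13), STT3A (0.13) and CTSK (0.13), among 11478 probes. For SOX2, with a deviation of 0.35, they were ZNF341 (0.11), S1PR5 (0.13), TMSB15B (0.15), SPC25 (0.16) and PSRC1 (0.16), among 6878 probes. Of these 15 genes, S1PR5 (-0.67, adjusted p = 0.0390, limma) and TMSB15B (-0.85, adjusted p = 0.0222) passed over control, both with SOX2, and S1PR5 lay under the filter intensity on both SOX2 arrays. The same 8 arrays enter each profile, so replicate differences count as much as group differences in this measure.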

How the data were processed

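RNA of 8 H1 samples was measured on 1 Illumina array each. The deposited series matrix gives the authors' intensity values on a linear scale for 47323 probes; the tool behind them is unstated in the sources used. Array medians were 117.1, and matched ranks were within 2.30 of each other on every array, so they were taken as quantile normalized. A further deposited table has 16 columns whose names match no sample, and these were not used. The intensities received normexp correction (offset 50) and log2 in limma 3.58.1 (R 4.3.3), with no further normalization. Probes over 123.7, the 60th percentile, on at least 2 arrays were kept. The 21828 probes entered 1 model with a mean per group (4 residual and 4.34 prior degrees of freedom), and lmFit and eBayes gave two-sided tests. Folds are ratios of corrected intensities including the offset. The offset shrinks the folds of dim probes, while the background correction enlarges them over those of the deposited intensities. For a gene dimmer than the filter on a whole group, a bound was computed with those arrays raised to the filter intensity.

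Probe names came from the platform annotation (1 symbol for 30113 probes, several for 8, none for 17202), and 0 symbols needed updating. For lists, each gene was represented by its brightest probe. Named genes were all members, the 5 closest profiles to each member, up to 4 passing non-overlapping genes per list and comparison, and near relatives. Other genes named, among them LEFTY2, were chosen after their values were seen. The members, lists and motifs were chosen with earlier results of these data known. The fit was tested on simulated data. Alternatives were another offset, no background correction, cyclic loess, 2 other filters, only the groups compared, array weights, 1 probe per gene, a replicate block and leaving out each array.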

Additional observations from a re-analysis of the deposited data

How the results depend on the processing

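With all arrays kept, 304 of 318 alternative values of the member probes kept their direction and side of the threshold, and none turned its sign. The others were these. With an offset of 16, NANOG probe ILMN_3307710 with SOX2 was at -0.69 (adjusted p = 0.0513). With only the groups compared in the fit, the values stayed and the calls of ILMN_3307710 with SOX2 (-0.57, adjusted p = 0.168), SOX2 probe ILMN_2177156 with SOX2 (-1.15, 0.0911) and for OCT4 against SOX2 (0.91, 0.0904) and POU5F1 probe ILMN_1705546 for NANOG against SOX2 (0.68, 0.0617) were lost, while ILMN_2177156 passed for NANOG against control (-0.72, 0.0210) and against OCT4 (-0.49, 0.0159). With array weights, ILMN_3307710 with SOX2 (-0.57, 0.124) and ILMN_2177156 for OCT4 against SOX2 (0.91, 0.0580) were lost, and ILMN_2177156 for NANOG against control (-0.72, 0.0133) and against OCT4 (-0.49, 0.0385) and ILMN_1705546 for OCT4 against control (-0.95, 0.0156) passed. The weights were 0.40 for each SOX2 array, 1.03 for control, 1.23 for OCT4 and 1.98 for NANOG, so over all probes replicates scattered most with SOX2. The main fit gives all groups 1 shared spread, which understates that scatter for SOX2 over all probes. Its p-values for comparisons with SOX2 depend on that sharing. The fits with only the groups compared rest on fewer samples. POU5F1 probe ILMN_1665632 gave no value under the filter on all 8 arrays.

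The replicate numbers were not taken as pairs. The correlation between groups of replicate 1 minus replicate 2 ran from -0.19 (SOX2 with control) to 0.35 (OCT4 with control). OCT4 and control thus shared part of their replicate differences, also on the brighter member probes, and the source of this was not tested. With the replicate block, ILMN_3307710 with SOX2 was lost (-0.57, adjusted p = 0.0523), SOX2 probe ILMN_1770635 with SOX2 passed (-0.77, 0.0353), and no other member call changed.

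With 1 array left out in turn, the values that changed sign or side of the threshold had these ranges of log2 change. NANOG probe ILMN_1659013 ran from -0.47 to 0.038 for NANOG against control and -0.38 to 0.12 for OCT4 against SOX2. POU5F1 probe ILMN_1665632 ran from -0.027 to 0.057 for NANOG against control, -0.22 to 0.19 for OCT4 against control, -0.16 to 0.15 for SOX2 against control, -0.14 to 0.17 for NANOG against SOX2, -0.18 to 0.24 for NANOG against OCT4 and -0.22 to 0.20 for OCT4 against SOX2. SOX2 probe ILMN_2177156 ran from -0.97 to -0.48 for NANOG against control, -0.49 to 0.012 for OCT4 against control and 0.78 to 1.05 for OCT4 against SOX2. POU5F1 probe ILMN_1705546 ran from -1.09 to -0.80 for OCT4 against control, 0.51 to 0.85 for NANOG against SOX2, 1.13 to 1.39 for NANOG against OCT4 and -0.74 to -0.41 for OCT4 against SOX2. NANOG probe ILMN_3307710 ran from -0.70 to -0.44 for SOX2 against control and -0.072 to 0.15 for OCT4 against SOX2. SOX2 probe ILMN_1770635 ran from -1.12 to -0.42 for SOX2 against control, -0.022 to 0.67 for NANOG against SOX2 and -0.26 to 0.16 for NANOG against OCT4. Where a group kept 1 array, that array was assumed to vary like the other groups.

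Of 25 named list results, 6 kept their call under every alternative, 18 were lost with some array left out, 1 (GJA1 with SOX2) only with all arrays kept (adjusted p = 0.0850 with only the groups compared), and all 25 kept their sign. Called probes in all ranged, over the alternatives, from 67 to 1674 for NANOG against control (506 as reported), 1 to 195 for OCT4 (38), 189 to 5444 for SOX2 (1749), 700 to 6161 for NANOG against SOX2 (2939), 149 to 3419 for NANOG against OCT4 (1118) and 157 to 5071 for OCT4 against SOX2 (1036). The lowest for NANOG against control and the highest for SOX2 came without NANOG replicate 1 and SOX2 replicate 1. The cause was not tested.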
